A study of Mus musculus with 12 samples.

Results

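The immediate early genes Fos, Fosb, Jun, Junb, Jund, Egr1, Atf3, Ier2, Zfp36 and Dusp1 were followed through single-cell transcriptomes of mouse aorta. The 10 genes were taken by name from the 32245 gene symbols of the 4 expression matrices, and all 10 were measured in every library. In all, 4 groups of male C57BL/6J ApoE-/- mice, 8 weeks old at the start, were fed for 24 weeks, and the aortas of 6 mice per group were pooled into 1 library. The Healthy group ate normal chow and received saline. The AS group (atherosclerosis) ate a diet with 1% cholesterol and 10% fat and received saline. The MTZ-treated group ate the AS diet and received methazolamide, a carbonic anhydrase inhibitor spelled methoxazolamide in the labels, by gavage every other day at 25 mg/kg over the last 12 weeks. Until then it received saline. The MTZ-preventive group also ate the AS diet and received the same dose over all 24 weeks. With 1 library per group no test between groups is possible. All intervals below are exact 95% intervals that cover counting error only, and diet, drug, library and tissue handling cannot be told apart. Against Healthy, the Apoe genotype may differ too, as described below.

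After filtering, 11121 cells of the Healthy, 2160 of the AS, 6796 of the MTZ-treated and 14186 of the MTZ-preventive library remained, with medians of 1298 to 1903 unique molecules (UMIs) per cell. They came from 21857, 6908, 20938 and 23963 deposited barcodes, so the filter removed a larger share in AS and MTZ-treated. Levels are UMIs of a gene per 1000000 UMIs of the same cells (CPM), each molecule being counted once at its 5′ end. Between 84.2% and 89.8% of the cells of a library were gated into a class by at least 3 marker genes, and each class is called by its markers (endothelial-like and so on). Subtypes within a class were not separated, so a class may hold different cells in different libraries. Apoe, given as deleted in all 4 groups, was at 727 CPM in the library labelled Healthy and between 8.84 and 12.8 CPM in the others. The Apoe level of the Healthy library goes against its ApoE-/- label, and directions drawn from that library carry that doubt. Cells of any 2 libraries shared 23 to 240 barcode sequences, at most 2.30% of the smaller library. The AS library held few lymphocytes, with 14 B-like, 12 T-like and 0 NK-like cells (exact upper limit 0.171% of 2160 cells), where the Healthy library held 3004 B-like and 1864 T-like cells.

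Fos, Fosb, Jun, Junb and Jund encode subunits of activator protein 1 (AP-1), a dimer of basic leucine zipper proteins that binds DNA in the enhancers of growth, stress and cytokine genes. Egr1 is a zinc finger factor and Atf3 a stress-induced partner of the AP-1 family, Ier2 is a nuclear protein of the same early wave, and Zfp36 (tristetraprolin, which destabilizes cytokine mRNA) and Dusp1 (a phosphatase of MAP kinases) dampen the response. MAP kinase signalling, serum and mechanical stress switch most of these genes on within minutes without new protein synthesis. Enzymatic digestion of solid tissue is known to do the same, which is why their level in dissociated tissue is read with caution. The length and temperature of digestion are not given in the sources used here.

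The start regions of 4 members are shown because their levels took opposite patterns over the 4 classes found in every library. Fos, Junb and Zfp36 varied more between libraries than between classes there, and Dusp1 varied mostly between classes. That contrast rested on the small macrophage-like class. Without it, Dusp1 had 58.6% of its spread between libraries and 15.5% between classes, and Fos 39.7% and 43.2%. Windows around the annotated start (250 bases before to 50 after, GRCm38.p6, RefSeq) were matched by symbol for 8 of the 10 genes. Egr1 and Ier2 had no match. The 200 bases before the start are printed 5′ to 3′ on the gene's strand. Capitals mark the short cAMP response site TGACG and the full element TGACGTCA (both strands, the full element contains the short site), the TATA box TATAAA on the gene's strand and the CArG box, to which serum response factor binds.
Fos, chr12:85473690-85473889, plus strand: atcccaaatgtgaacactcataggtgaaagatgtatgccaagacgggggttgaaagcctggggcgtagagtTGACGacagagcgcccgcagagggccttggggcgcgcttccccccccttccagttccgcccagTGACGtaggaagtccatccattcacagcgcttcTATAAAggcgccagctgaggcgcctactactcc
Junb, chr8:84978749-84978948, minus strand: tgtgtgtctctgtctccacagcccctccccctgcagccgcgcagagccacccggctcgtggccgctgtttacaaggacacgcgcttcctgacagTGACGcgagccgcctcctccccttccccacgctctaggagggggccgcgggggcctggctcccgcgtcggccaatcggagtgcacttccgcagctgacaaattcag
Zfp36, chr7:28379229-28379428, minus strand: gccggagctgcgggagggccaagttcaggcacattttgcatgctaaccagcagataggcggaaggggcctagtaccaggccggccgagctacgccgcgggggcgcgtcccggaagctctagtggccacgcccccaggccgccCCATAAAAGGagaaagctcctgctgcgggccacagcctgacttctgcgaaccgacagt
Dusp1, chr17:26508473-26508672, minus strand: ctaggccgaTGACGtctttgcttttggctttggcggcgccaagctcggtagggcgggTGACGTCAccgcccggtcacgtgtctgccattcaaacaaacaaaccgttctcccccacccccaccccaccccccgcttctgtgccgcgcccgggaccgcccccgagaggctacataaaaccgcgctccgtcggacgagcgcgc

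The short site TGACG was in the 300-base windows of 5 of the 8 genes (Fos, Fosb, Junb, Atf3 and Dusp1) and in 20.8% of all 32851 windows. The full element TGACGTCA was found in Dusp1 alone and in 1.79% of windows, the CArG box in Zfp36 alone and in 1.63% of windows, and TATAAA in Fos and Junb and in 8.32% of windows. The TATAAA of Junb begins at the annotated start itself, outside the printed stretch. The AP-1 site TGANTCA was in 7.81% of all windows and in none of the 8. These matches describe the letters of the windows only. Sites farther upstream were not looked at, so a gene without a match here may still have the element.

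Together the 10 genes were abundant in every library. Their summed level was 18874 CPM (18823 to 18925) in the Healthy library, 15984 CPM (15856 to 16112) in AS, 15877 CPM (15813 to 15942) for MTZ-treated and 21319 CPM (21269 to 21370) for MTZ-preventive. MTZ-preventive was the highest of the 4, and AS and MTZ-treated did not differ beyond counting error. Fos was the largest contributor in 3 libraries, making up 19.7% of the AS sum, 22.4% of the MTZ-treated sum and 20.8% of the MTZ-preventive sum, and Junb the largest in the Healthy library, with 23.3%. The median mitochondrial share of UMIs was 2.40% for Healthy, 3.57% for AS, 1.89% for MTZ-treated and 3.25% for MTZ-preventive, and its part in these levels was not tested.

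UMIs of several of the genes were found under most cell barcodes. Free RNA was not estimated, so a UMI under a barcode is not read here as expression by that cell. With each cell thinned to 1000 UMIs, the median cell held UMIs of 7 of the 10 genes in all 4 libraries, and 81.6% of the Healthy, 79.7% of the AS, 75.9% of the MTZ-treated and 85.7% of the MTZ-preventive cells held 5 or more. Cells without a UMI of any of them made up 0.472% to 1.43%. The mesothelial-like cells of the MTZ-preventive library (n = 38) were the lowest, with a median of 4 genes and 47.4% of cells at 5 or more, and the adipocyte-like cells were high, with 92.4% in AS and 93.3% in MTZ-preventive. Pairs of members were found in the same cell slightly more often than their separate shares predict, with median ratios of observed to expected cells over 16 class and library units from 1.03 for Jund with Fos, Jun or Dusp1 to 1.23 for Fosb with Egr1 or Atf3. Pairs of other genes were not counted, so these ratios have no background and are not read as particular to the members. Without thinning, 87.2% to 94.4% of the cells of a library held 5 or more of the genes.

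**Figure D1:**
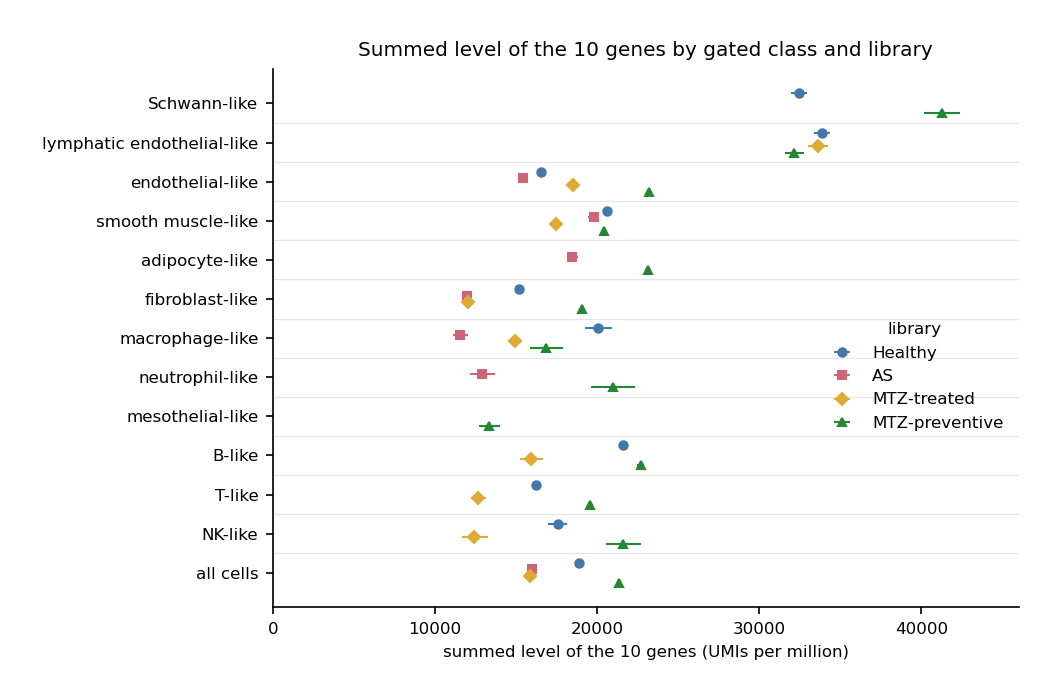
Summed level of the 10 genes in CPM (x axis, linear from 0) for each gated class with at least 20 cells and for all cells, 1 symbol per library, with exact 95% Poisson intervals for counting error. Schwann-like and lymphatic endothelial-like cells lie at 32158 CPM or more in every library with at least 20 of them, while the other classes lie between 11563 and 23220 CPM.

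The summed level differed widely between some cell classes, with Schwann-like and lymphatic endothelial-like cells far above the others. Schwann-like cells, the glia of peripheral nerves, were at 32453 CPM (31975 to 32936) in Healthy and 41265 CPM (40165 to 42388) in MTZ-preventive. Their higher level did not come with a larger share of cells holding 5 or more of the genes. After thinning, 73.4% of Schwann-like cells of Healthy held 5 or more, against 82.0% of its fibroblast-like cells. In MTZ-preventive the shares were 79.0% and 85.1%. The median Schwann-like cell, however, held 8 of the genes in both libraries, against 7 for the median fibroblast-like cell. Single genes went both ways. In Healthy, 75.4% of Schwann-like and 64.4% of fibroblast-like cells held Jun, and 78.4% and 83.6% held Fos. Lymphatic endothelial-like cells were at 33853 CPM (33351 to 34360) in Healthy, 33640 CPM (33024 to 34264) in MTZ-treated and 32158 CPM (31570 to 32755) in MTZ-preventive. These 3 sums, from 100, 79 and 92 cells, lay close together, in libraries whose endothelial-like cells ranged from 16542 to 23220 CPM. Single genes of lymphatic endothelial-like cells moved in opposite directions, with Atf3 at 910, 2167 and 1531 CPM and Egr1 at 4007, 3052 and 3965 CPM. Fibroblast-like cells were the lowest class in Healthy (15181 CPM) and MTZ-treated (12052 CPM), macrophage-like cells in AS (11563 CPM) and mesothelial-like cells in MTZ-preventive (13351 CPM).

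Each gene had its own classes. Fos was highest in Schwann-like cells, at 10068 CPM in Healthy and 13585 CPM in MTZ-preventive, and lowest in NK-like cells, at 1442 CPM in Healthy, 657 CPM in MTZ-treated and 1790 CPM in MTZ-preventive. The highest class was thus 6.98-fold above the lowest in Healthy and 7.59-fold in MTZ-preventive. Jun was likewise highest in Schwann-like cells, with 4755 and 6831 CPM there, against 1094 CPM in the NK-like cells of Healthy and 964 CPM in the macrophage-like cells of MTZ-preventive. Fosb was highest in the Schwann-like cells of Healthy (2709 CPM) and in the lymphatic endothelial-like cells of MTZ-treated (3544 CPM) and MTZ-preventive (2578 CPM). Egr1 reached 4015 CPM in the Schwann-like and 4007 CPM in the lymphatic endothelial-like cells of Healthy, and 679 CPM in its B-like cells.

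Junb was higher in lymphocytes than in fibroblast-like cells, unlike Fos. It was at 6180 CPM in B-like, 6283 CPM in T-like and 5391 CPM in NK-like cells of Healthy, against 2242 CPM in its fibroblast-like cells, and at 6293 CPM in its lymphatic endothelial-like cells. In MTZ-preventive the B-like, T-like and NK-like cells were at 7282, 8207 and 7986 CPM and in MTZ-treated at 3278, 3932 and 3874 CPM. Junb was thus lower in all 3 lymphocyte classes of MTZ-treated, from 74, 138 and 41 cells, than of Healthy and MTZ-preventive. The summed level of the 10 genes was lower there too. It was 15950 CPM in B-like cells of MTZ-treated, against 21590 CPM in Healthy and 22677 CPM in MTZ-preventive. In T-like cells it was 12669 against 16251 and 19558 CPM, and in NK-like cells 12422 against 17567 and 21599 CPM. Some members went the other way. Atf3 in B-like cells was at 1941 against 653 and 809 CPM, and Ier2 in T-like cells at 1623 against 1248 and 1384 CPM. Depth differed too, with a median of 1661 UMIs in T-like cells of MTZ-treated against 2898 and 2312. AS held too few lymphocytes for a level. Jund, which restrains proliferation in several cell types, was highest in B-like cells, at 5991 CPM in Healthy, 4446 CPM in MTZ-treated and 5868 CPM in MTZ-preventive. In T-like cells it was at 1992, 2374 and 2681 CPM in these libraries, against 1902, 1760 and 1723 CPM in fibroblast-like cells. The T-like value was thus near that of fibroblast-like cells in Healthy only. In NK-like cells it was at 3542, 2626 and 4027 CPM. In endothelial-like, fibroblast-like and smooth muscle-like cells it stayed between 1707 and 2241 CPM in all 4 libraries, the narrowest range among the 10 genes.

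Atf3 and Dusp1 had other leading classes. Atf3 was at 144 CPM in the T-like cells of Healthy and at 2340 CPM in its macrophage-like cells, a 16.2-fold range. It was again lowest in the T-like cells of MTZ-preventive, at 301 CPM, but its highest class was not the same in each library: smooth muscle-like cells in AS (1758 CPM), macrophage-like cells in MTZ-treated (2501 CPM) and Schwann-like cells in MTZ-preventive (2251 CPM). After thinning to 1000 UMIs, 9.71% of T-like cells of Healthy (8.40 to 11.1, median depth 2898 UMIs) held an Atf3 UMI, against 69.2% of its macrophage-like cells (52.4 to 83.0, median depth 2950 UMIs). Unthinned, the shares were 19% and 79.5%. Dusp1 was at 2255, 2461, 2339 and 1815 CPM in the macrophage-like cells of Healthy, AS, MTZ-treated and MTZ-preventive and between 695 and 1284 CPM in the endothelial-like, fibroblast-like and smooth muscle-like cells, so macrophage-like cells did not overlap with these 3 classes. Within Healthy, MTZ-treated and MTZ-preventive, lymphatic endothelial-like cells lay between these 3 classes and macrophage-like cells, at 2077, 1776 and 1664 CPM. Across libraries their range overlapped with that of macrophage-like cells. Neutrophil-like cells were at 1949 CPM Dusp1 in AS and 3306 CPM in MTZ-preventive. The 10 leading genes of the AS neutrophil-like cells (n = 40) held none of the markers of the gate and none of those of another class. They included S100a9 and Ngp, which also led in the neutrophil-like cells of MTZ-preventive (n = 31), beside 3 markers of the gate.

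Between its highest and lowest class, Ier2 differed by 2.03-fold in Healthy to 4.17-fold in MTZ-treated, and Zfp36 by 2.55-fold in AS to 3.35-fold in MTZ-preventive. Ier2 was highest in the adipocyte-like cells of AS, at 2219 CPM, the NK-like cells of MTZ-treated (1865 CPM) and MTZ-preventive (1654 CPM) and the lymphatic endothelial-like cells of Healthy (1393 CPM). Zfp36 was highest in B-like cells of Healthy (2524 CPM) and in the neutrophil-like cells of MTZ-preventive (3531 CPM), and lowest in fibroblast-like cells in Healthy, AS and MTZ-treated (970, 686 and 604 CPM).

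**Figure D2:**
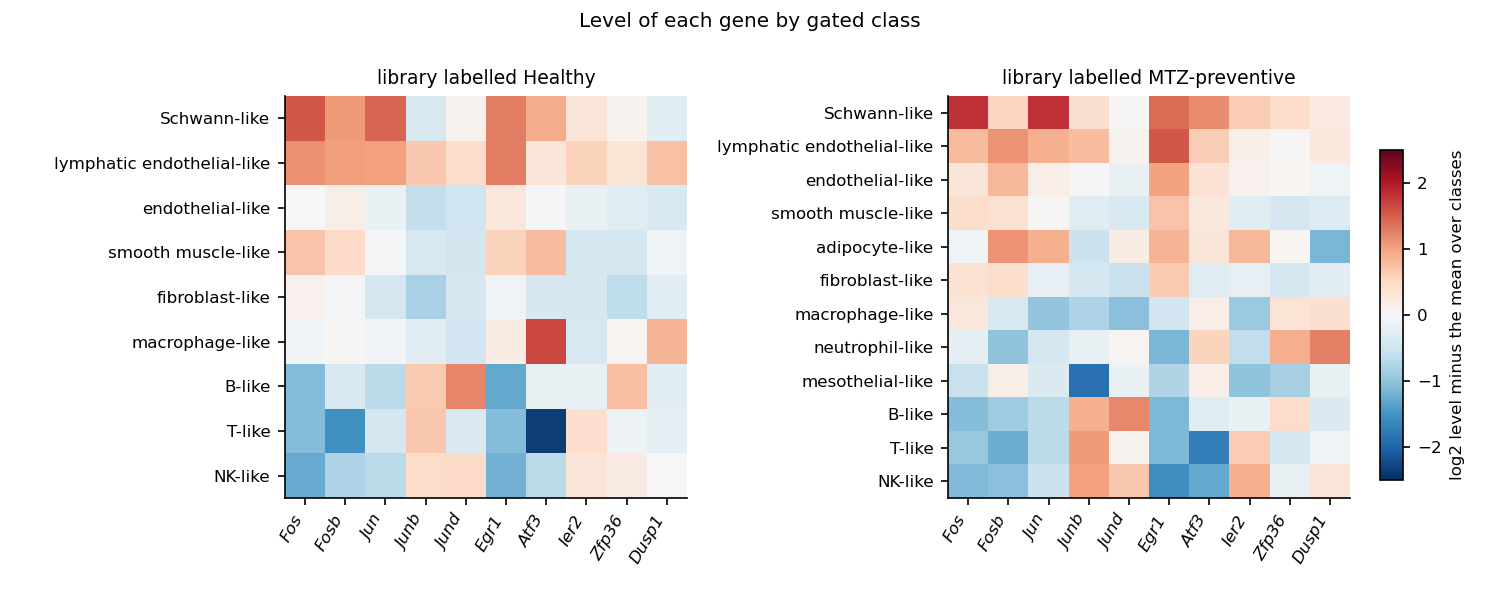
Colour gives each gene's log2 level in a gated class minus its mean over the classes of that library, for the libraries labelled Healthy and MTZ-preventive (columns are genes, rows are classes with at least 20 cells). Fos, Jun and Egr1 are high in Schwann-like and lymphatic endothelial-like rows, Junb in the lymphocyte rows, and Atf3 lowest in T-like cells.

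Whether the level follows the library or the cell class was asked with the 4 classes that held at least 20 cells in every library: endothelial-like, fibroblast-like, smooth muscle-like and macrophage-like, 16 units in all. The spread of each gene's log2 level was split into a part between classes, a part between libraries and a rest. The median over the 10 genes was 52.6% between classes and 21.2% between libraries, against medians of 51.3% and 18.2% over all 2738 genes of at least 50 CPM. The library part exceeded the class part for 3 of the 10 genes and for 28.1% of all genes, so the members' share lay near the background. These were Junb (52.4% between libraries, 27.6% between classes), Zfp36 (49.6% and 33.6%) and Fos (46.2% and 39.8%). At the other end, Dusp1 had 86.1% of its spread between classes and 3.37% between libraries, and Jund and Jun had 7.88% and 8.59% between libraries. Counting error was expected to give a median of 1.18% of the spread of the members and 20.1% of that of all genes. The background shares thus hold more noise than those of the members.

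That answer rested on the macrophage-like class, which held 39, 96, 113 and 28 cells. With the 3 classes of at least 50 cells in every library, the median over the members was 41.7% between libraries and 37.3% between classes, against 31.6% and 53.3% over 2741 genes. The library part then exceeded the class part for 5 of 10 genes (Junb, Egr1, Ier2, Zfp36 and Dusp1) and for 37.6% of all genes. Dusp1 moved from 3.37% to 58.6% between libraries when the macrophage-like cells were left out, and Fos from 46.2% to 39.7%. Leaving out the AS library instead allowed 8 classes in 3 libraries, lymphocytes and lymphatic endothelial-like cells included. The medians were then 84.4% between classes and 7.56% between libraries, with the class part larger for all 10 genes, against 77.0% and 6.12% over 2643 genes, of which 4.73% had the larger part between libraries. With the same 4 classes and AS left out, the median between libraries was 13.1%. In cells of up to 2000 UMIs, where too few macrophage-like cells were left, the medians were 51.9% between libraries and 33.1% between classes. The order of the parts therefore differed between sets of cells and classes. Expected counting error was again smaller for the members than for all genes, with medians of 0.553% and 6.12% for the 3 classes and 1.17% and 16.1% for the 8.

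**Figure D3:**
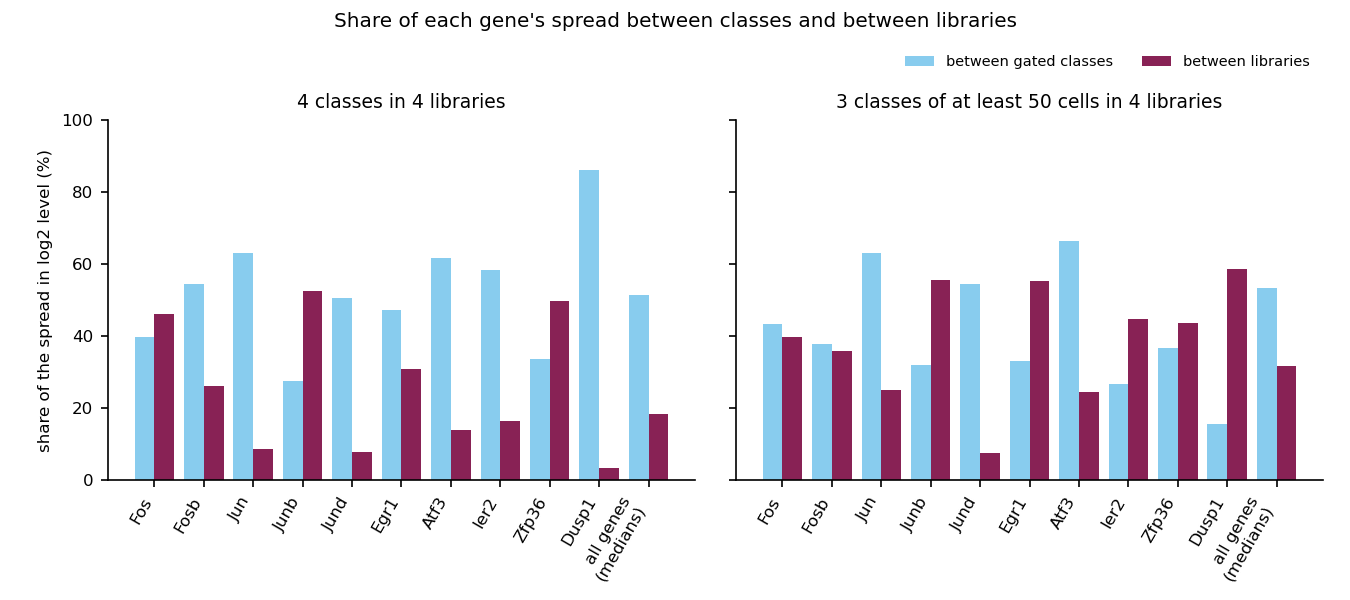
Bars give the share in percent of each gene's spread in log2 level that lay between gated classes and between libraries, for the 4 classes and for the 3 classes of at least 50 cells, beside the medians over all genes tested. Dusp1 has the largest class share with macrophage-like cells (86.1%) and the largest library share without them (58.6%).

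The libraries did not rank alike for all members. Over the 3 classes of at least 50 cells, each library's mean log2 level relative to the gene's mean was highest in MTZ-preventive for 8 of the 10 genes, by 0.05 for Jund and by more for the other 7: Fos 0.34, Fosb 0.26, Jun 0.24, Junb 0.47, Egr1 0.41, Zfp36 0.48 and Dusp1 0.25. MTZ-preventive was the highest library for 21.9% of the 2741 genes. Atf3 was highest in MTZ-treated (0.32) and lowest in Healthy (-0.41). Ier2 was highest in AS (0.33) and lowest in Healthy (-0.19). AS was the lowest library for Fos (-0.28), Fosb (-0.32) and Egr1 (-0.34), and MTZ-treated for Junb (-0.38), Zfp36 (-0.29) and Dusp1 (-0.19). A single ordering of the 4 libraries therefore did not describe all 10 genes.

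Over the 16 units, Junb, Fosb and Jun had the profiles closest to the mean of the other 9 members (Pearson r 0.88, 0.86 and 0.86), and Egr1 followed with 0.79. Atf3 (r = 0.18) and Dusp1 (r = -0.25) were the least alike. Among genes outside the list, the profiles most like the members' mean were those of Tob1 (r = 0.89, an antiproliferative early gene), Brd2 (0.88, a bromodomain protein), Hspa2 (0.87, a heat shock protein), Ppp1r15a (0.87, a phosphatase subunit of the stress response) and Mafk (0.87, a small Maf partner of AP-1-like dimers). The units share libraries, depth and classes, and these values are a description.

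**Figure D4:**
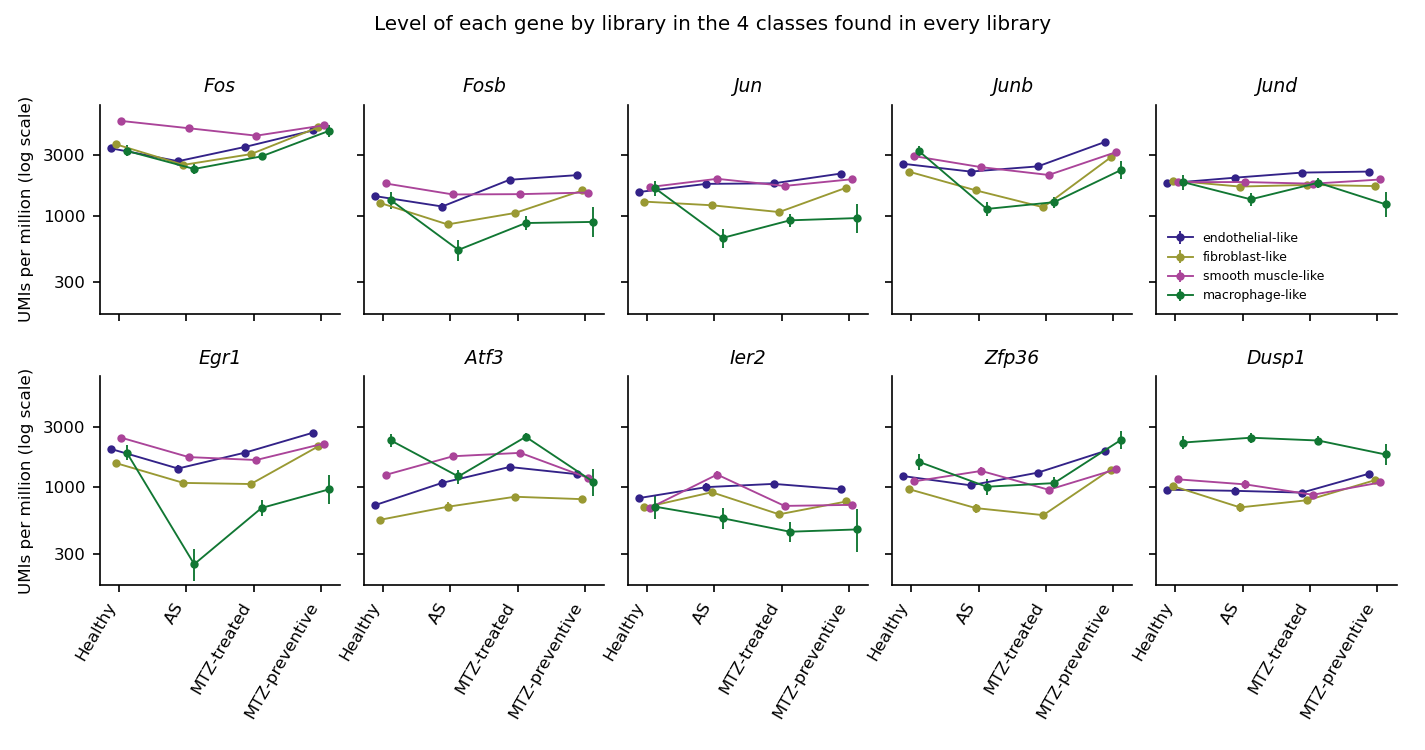
Level of each gene in CPM (y axis, log scale) in the 4 libraries (x axis) for the 4 classes found in all of them, with exact 95% Poisson intervals. Lines join points of 1 class for reading only. Dusp1 of macrophage-like cells lies above the other classes in every library, and Egr1 of macrophage-like cells is at 248 CPM in AS.

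AS was compared with Healthy, from which it differs in diet by label and, given the Apoe levels above, possibly in genotype. Over all cells, 1 of the 10 genes was at least 2-fold lower, Junb, and 0 were 2-fold higher, where 8.84% and 8.82% of 5724 genes of at least 20 CPM were lower and higher. Junb was at 4397 CPM in Healthy and 2084 CPM in AS (ratio 0.474, 0.463 to 0.485). Its ratio was 0.868 (0.821 to 0.918) within endothelial-like, 0.710 (0.672 to 0.750) within fibroblast-like, 0.818 (0.777 to 0.861) within smooth muscle-like and 0.352 (0.297 to 0.416) within macrophage-like cells. B-like and T-like cells made up 27.0% and 16.8% of the Healthy cells and 0.648% and 0.556% of the AS cells, and without B-like, T-like and NK-like cells the Junb ratio was 0.676. Jund likewise was lower over all cells (2959 and 1878 CPM, ratio 0.635, 0.619 to 0.650), with a ratio of 0.868 without the lymphocyte classes. Within classes its ratios were 1.11 (1.04 to 1.18) in endothelial-like, 0.897 (0.850 to 0.946) in fibroblast-like, 1.0 (0.943 to 1.06) in smooth muscle-like and 0.733 (0.611 to 0.880) in macrophage-like cells.

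Within classes, Egr1 was lower in AS in all 4: 2010 and 1407 CPM in endothelial-like cells (ratio 0.70), 1552 and 1084 CPM in fibroblast-like cells (0.698), 2459 and 1731 CPM in smooth muscle-like cells (0.704) and 1873 and 248 CPM in macrophage-like cells (0.132, 0.0949 to 0.181). The first 3 ratios were close to each other, while that of macrophage-like cells was far lower. The leading genes of the macrophage-like class differed between these libraries. C1qa, C1qb and C1qc led in both, Csf1r only in Healthy, and Ms4a7, Trem2 and Cd68 only in AS. The ratio may therefore compare different macrophages, which was not tested. Fos and Fosb were also lower in AS in the 4 classes, with ratios of 0.689 to 0.876 for Fos and 0.406 to 0.827 for Fosb. Ier2 went the other way in 3 classes, with 823 and 1004 CPM in endothelial-like, 694 and 915 CPM in fibroblast-like and 688 and 1261 CPM in smooth muscle-like cells (ratio 1.83, 1.70 to 1.98). Atf3 was higher in AS in the same 3 classes (ratios 1.5, 1.27 and 1.40) and lower in macrophage-like cells (2340 and 1218 CPM, ratio 0.521, 0.436 to 0.621).

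Counted at a 1.5-fold limit, 0 of 10 members were lower in AS in endothelial-like cells, where 14.0% of all genes were, 0 in fibroblast-like cells (12.6% of all genes) and 0 in smooth muscle-like cells (20.9%). In macrophage-like cells 6 of 10 were lower (Fosb, Jun, Junb, Egr1, Atf3 and Zfp36), against 26.6% of all genes there, from 39 Healthy and 96 AS cells. Members higher by that factor were not counted. Ier2 of smooth muscle-like cells was such a member, at 688 CPM in Healthy and 1261 CPM in AS. The members' median log2 ratio was -0.12 in endothelial-like, -0.50 in fibroblast-like, -0.06 in smooth muscle-like and -0.80 in macrophage-like cells, and that of all genes lay between -0.11 and 0.08. In fibroblast-like cells 8 of the genes had ratios of 0.677 to 0.936, each short of 1.5-fold, and Atf3 and Ier2 had ratios above 1.

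MTZ-treated was compared with AS, from which it differs by label in late methazolamide. Over all cells the summed level did not differ beyond counting error (15877 and 15984 CPM, ratio 0.993, 0.984 to 1.0), and 0 members were 2-fold higher or lower, where 4.02% and 4.49% of all genes were. Ier2 was lower (1224 CPM in AS, 790 CPM in MTZ-treated, ratio 0.646, 0.624 to 0.668). It was lower in fibroblast-like (0.670) and smooth muscle-like cells (0.567, 0.525 to 0.612), whereas in endothelial-like cells its values were 1004 and 1065 CPM (1.06, 0.977 to 1.15).

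In endothelial-like cells the summed level was 15405 CPM in AS and 18523 CPM in MTZ-treated (ratio 1.20, 1.18 to 1.23), and in smooth muscle-like cells 19794 and 17475 CPM (0.883, 0.867 to 0.899). Fos itself was at 2704 and 3511 CPM in endothelial-like cells (1.30, 1.24 to 1.36) and at 4919 and 4299 CPM in smooth muscle-like cells (0.874, 0.842 to 0.907). Of the 10 genes, 9 had a ratio above 1 in endothelial-like cells, against 60.2% of 2258 genes, 8 had a ratio below 1 in smooth muscle-like cells, against 38.0%, and 7 did both, against 13.6%. The difference between the classes was not tested, and subtypes within them were not separated. The smooth muscle ratio was 0.992 when cells were weighted alike and 1.03 in cells of up to 2000 UMIs, and 1.0 with a looser cell filter, so its direction did not hold under every setting. The number of members at least 1.5-fold higher was 1 in endothelial-like cells (Fosb, 1189 and 1931 CPM, 9.29% of all genes), 0 in fibroblast-like cells (10.4%), 0 in smooth muscle-like cells (17.4%) and 3 in macrophage-like cells (Fosb, Egr1 and Atf3, 19.2%). Members lower by that factor were not counted. Ier2 of smooth muscle-like cells was such a member, at 1261 CPM in AS and 714 CPM in MTZ-treated. Junb of fibroblast-like cells was lower (1593 and 1173 CPM, ratio 0.736, 0.695 to 0.780).

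MTZ-preventive was compared with AS, from which it differs by label in methazolamide from the start. The summed level was 1.33-fold that of AS (1.32 to 1.34). Over all cells, 0 members were 2-fold higher or lower, where 3.67% and 1.82% of all genes were, and the median log2 ratio of the members was 0.42, against 0.06 over all genes. Junb came nearest to 2-fold, at 2084 CPM in AS and 4004 CPM in MTZ-preventive (ratio 1.92, 1.88 to 1.97). B-like and T-like cells made up 7.55% and 5.65% of the MTZ-preventive cells and 0.648% and 0.556% of the AS cells. Without B-like, T-like and NK-like cells the Junb ratio was 1.69. Ier2 (1224 and 951 CPM, ratio 0.776) and Atf3 (1182 and 988 CPM, ratio 0.836) were lower. This comparison and that of MTZ-treated share the AS library, which had the fewest cells, so their values are set side by side only.

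Within classes the difference was smallest in smooth muscle-like cells. Summed levels were 15405 CPM in AS and 23220 CPM in MTZ-preventive in endothelial-like cells (ratio 1.51, 1.48 to 1.54), 11987 and 19088 CPM in fibroblast-like cells (1.59, 1.56 to 1.62), 11563 and 16833 CPM in macrophage-like cells (1.46, 1.35 to 1.57) and 19794 and 20404 CPM in smooth muscle-like cells (1.03, 1.01 to 1.05). The smooth muscle ratio was 1.29 with the looser cell filter, 1.15 as a mean over cells, 1.11 in cells of up to 2000 UMIs and 0.993 with doublets kept. Members at least 1.5-fold higher numbered 5 of 10 in endothelial-like cells (10.2% of all genes), 6 of 10 in fibroblast-like cells (8.98%), 5 of 10 in macrophage-like cells (29.8%) and 0 of 10 in smooth muscle-like cells (16.3%). Fos, Fosb, Junb, Egr1 and Zfp36 made up the 5 in both endothelial-like and macrophage-like cells and, with Dusp1, the 6 in fibroblast-like cells. Members lower by that factor were not counted. Ier2 of smooth muscle-like cells was such a member, at 1261 CPM in AS and 728 CPM in MTZ-preventive.

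Fos was at 2704 CPM in AS and 4724 CPM in MTZ-preventive in endothelial-like cells (ratio 1.75, 1.67 to 1.83), at 2530 and 5000 CPM in fibroblast-like cells (1.98, 1.90 to 2.06) and at 2350 and 4690 CPM in macrophage-like cells (2.0, 1.72 to 2.32). In smooth muscle-like cells it was at 4919 and 5182 CPM (1.05, 1.02 to 1.09). The smooth muscle-like cells of AS thus already held a Fos level near that which the other classes had in MTZ-preventive. Zfp36 was at 686 and 1382 CPM in fibroblast-like cells (2.02, 1.86 to 2.19) and at 1347 and 1388 CPM in smooth muscle-like cells (1.03, 0.963 to 1.10). Fos, Junb and Egr1 were higher in all 4 classes beyond counting error, with smooth muscle ratios of 1.31 (1.25 to 1.38) for Junb and 1.28 (1.20 to 1.36) for Egr1. Ier2 was lower in smooth muscle-like cells (1261 and 728 CPM, ratio 0.577, 0.537 to 0.621), as was Atf3 (1758 and 1189 CPM, ratio 0.676, 0.637 to 0.719).

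MTZ-preventive was also set beside the libraries other than AS. Against Healthy, the summed ratio was 1.40 (1.39 to 1.42) in endothelial-like cells, 1.26 (1.25 to 1.27) in fibroblast-like cells, 0.991 (0.982 to 0.999) in smooth muscle-like cells and 0.838 (0.779 to 0.902) in macrophage-like cells. Against MTZ-treated it was 1.25, 1.58, 1.17 and 1.13 in the same order, and within these 4 classes Junb of fibroblast-like cells had the highest ratio of any member (1173 CPM in MTZ-treated and 2897 CPM in MTZ-preventive, ratio 2.47, 2.40 to 2.54). Smooth muscle-like cells thus had the summed ratio nearest to 1 against Healthy.

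**Figure D5:**
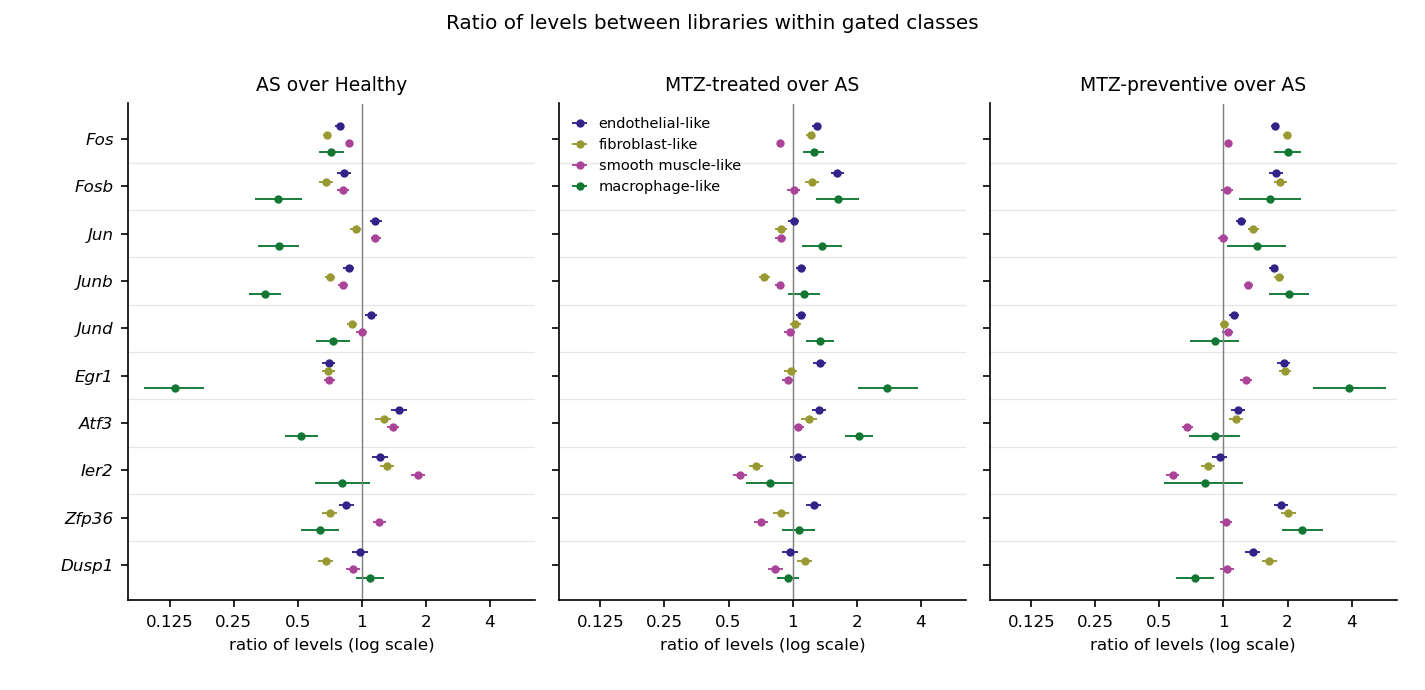
Ratio of levels between 2 libraries (x axis, log scale, 1 marks no difference) for each gene within the 4 shared classes, with exact 95% intervals for counting error. In MTZ-preventive over AS, the smooth muscle-like ratios lie between 0.577 and 1.31 while Fos, Fosb, Junb, Egr1 and Zfp36 of the other 3 classes lie between 1.66 and 3.89.

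Other genes of the response were read from 5 lists, over all cells unless a class is named, so the class make-up of each library enters these levels. Of 10 other AP-1 and partner genes above 20 CPM (13 listed), 3 were at least 2-fold higher in AS than in Healthy, among them Fosl1 (18 CPM in Healthy and 48.7 CPM in AS, a Fos relative), and Fosl1 was 2-fold lower in MTZ-treated (16.4 CPM) than in AS. The list's median log2 ratios were 0.01, -0.07 and 0.33 in AS over Healthy, MTZ-treated over AS and MTZ-preventive over AS. The shares of all genes past the 2-fold limit, given above for each comparison, were 8.82% higher and 8.84% lower in AS over Healthy, 4.02% higher in MTZ-treated over AS and 3.67% higher in MTZ-preventive over AS, and apply to each list. Of 20 other immediate early genes, 5 were 2-fold lower and 2 higher in AS than in Healthy, 1 was 2-fold higher in MTZ-treated than in AS (Egr3), and 5 were 2-fold higher in MTZ-preventive than in AS. Within classes their summed level in Healthy and AS was 8336 and 8183 CPM in endothelial-like and 6977 and 6890 CPM in fibroblast-like cells. It was 10218 and 10724 CPM in smooth muscle-like and 8451 and 4114 CPM in macrophage-like cells. The orphan receptor gene Nr4a1 was at 1281 CPM in Healthy, 314 CPM in AS, 469 CPM in MTZ-treated and 983 CPM in MTZ-preventive. Egr3, a relative of Egr1, was at 58.4, 10.9, 23.7 and 22.8 CPM. Ier3 (499, 1398, 1406 and 1124 CPM) and Gadd45g (601, 1551, 1277 and 1248 CPM) were the 2 that were higher in AS.

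Of 12 feedback genes above 20 CPM (15 listed), 4 were 2-fold lower in AS than in Healthy and 3 were 2-fold higher in MTZ-preventive than in AS, over all cells. The summed level of the 15 listed genes over all cells was 4857 CPM in Healthy and 3600 CPM in AS. Within endothelial-like (3516 and 3854 CPM) and smooth muscle-like cells (3089 and 3619 CPM) it was higher in AS. Within fibroblast-like (2952 and 2544 CPM) and macrophage-like cells (4179 and 2537 CPM) it was lower. Dusp2, a phosphatase of MAP kinases made largely by lymphocytes and myeloid cells, was at 732, 44.5, 81.7 and 250 CPM in the 4 libraries, and Dusp5 at 165, 33.3, 34.8 and 94.2 CPM. Of 13 upstream kinases and factors above 20 CPM (15 listed), 0 were 2-fold higher or lower in any of the 3 comparisons, with median log2 ratios of 0.01, -0.24 and 0.18. mRNA level does not measure kinase activity.

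The 12 heat shock genes, which digestion and warming are also known to induce, had a summed level of 13972 CPM in Healthy, 6633 CPM in AS, 8790 CPM in MTZ-treated and 11535 CPM in MTZ-preventive. Of the 12, 6 were 2-fold lower in AS than in Healthy (8.84% of all genes) and 2 higher (8.82%), 2 were 2-fold higher in MTZ-treated than in AS (4.02%), and 5 were 2-fold higher in MTZ-preventive than in AS (3.67%). The inducible chaperone genes Hspa1a (700, 153, 315 and 342 CPM) and Hspa1b (596, 83.0, 212 and 254 CPM) were the lowest relative to Healthy, and Hspb1 (830, 1743, 2049 and 2119 CPM) was higher in AS. Within endothelial-like cells the summed heat shock level was 9021, 6885, 9447 and 10704 CPM, within fibroblast-like cells 7753, 5576, 6156 and 8599 CPM and within smooth muscle-like cells 12109, 8535, 11233 and 13678 CPM. In each of these 3 classes it was lowest in AS and highest in MTZ-preventive. The summed level of the 10 members was also lowest in AS and highest in MTZ-preventive in endothelial-like and fibroblast-like cells, where the fibroblast-like cells of AS and MTZ-treated did not differ beyond counting error, but in smooth muscle-like cells it was lowest in MTZ-treated (17475 CPM) and highest in Healthy (20599 CPM). Whether digestion set any of these levels was not tested, and library and tissue handling cannot be told apart.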

How the data were processed

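Aortic cells of 4 libraries were profiled with the 10x 5′ assay. The deposited matrices hold raw UMI counts per gene and cell barcode, made by the authors. The submitters' processing notes name Cell Ranger 5.0.0, STAR and mm10. Receptor libraries were not used here. Barcodes with more than 1000 UMIs, more than 200 genes, log10 genes over log10 UMIs above 0.7, under 10% mitochondrial and under 5% red cell UMIs were kept. Doublets were called by nearest neighbours of simulated doublets (30 components, 0.8% per 1000 cells) and removed. Cells were gated by at least 3 markers of 1 of 12 classes, more than of any other. In cells with at least 3 lymphatic endothelial markers, endothelial markers were counted toward the lymphatic endothelial-like class. Counts were summed per class and library. Intervals are Poisson for levels, conditional binomial for ratios and Clopper-Pearson for shares, at 95%. The split of spread used log2 levels with an added count of 0.5. Named genes were the 10 members, up to 2 highest and 2 lowest genes per list and comparison, 5 genes most like the members, Apoe and gate markers. S100a9 and Ngp were added as leading genes of a gated class. Members, lists and tests were chosen with earlier results of these data known. Tools were Python 3.11.15, scipy 1.17.1, scikit-learn 1.9.0 and edgeR 4.0.16, the last for scaling factors only. Scripts were tested on simulated data.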

Additional observations from a re-analysis of the deposited data

Results flagged for a closer look

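The summed level of the 10 genes in MTZ-treated over AS went in opposite directions in 2 classes. The ratio was 1.20 in endothelial-like cells and 0.883 in smooth muscle-like cells, from 1 library per group in each class, and the difference was not tested. Of the 10 genes, 9 had a ratio above 1 in endothelial-like cells (60.2% of the 2258 genes tested in both classes), 8 had a ratio below 1 in smooth muscle-like cells (38.0%) and 7 did both (13.6%). The smooth muscle ratio was 1.0 with the looser cell filter, 0.992 as a mean over cells and 1.03 in cells of up to 2000 UMIs.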

How the results depend on the processing

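No paired analysis was possible because each group has 1 library. The summed level in AS over Healthy (0.847) was 0.798 with the looser cell filter (more than 500 UMIs, under 20% mitochondrial UMIs), 0.872 with doublets kept, 0.761 with totals that leave out hemoglobin, mitochondrial and ribosomal protein genes, 0.815 as a mean over cells, 0.791 in cells of up to 2000 UMIs, 0.811 with equal weight for each class and 0.820 without Fos. In MTZ-treated over AS (0.993) the values were 0.977 with doublets kept, 1.02 with the reduced totals, 1.05 as a mean over cells, 1.08 in cells of up to 2000 UMIs, 0.978 with TMM factors, 1.07 with equal class weights and 0.961 without Fos, so the value lay on either side of 1. In MTZ-preventive over AS (1.33) they were 1.39 with the looser filter, 1.25 with doublets kept, 1.43 with the reduced totals, 1.39 as a mean over cells, 1.41 in cells of up to 2000 UMIs, 1.31 with TMM factors, 1.35 with equal class weights and 1.32 without Fos. Without B-like, T-like and NK-like cells, an alternative chosen after seeing the data, the 3 ratios were 0.849, 1.0 and 1.34. Within smooth muscle-like cells the summed ratio of AS over Healthy was 0.961, and 0.728 with the looser filter. It was 0.931 and 0.910 in endothelial-like and 0.790 and 0.717 in fibroblast-like cells.

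The median share between libraries (21.2%) and between classes (52.6%) became 32.5% and 35.7% with the looser filter, 30.5% and 42.9% as a mean over cells, 51.9% and 33.1% in cells of up to 2000 UMIs, 35.2% and 40.3% with the stricter gate, and 41.7% and 37.3% with at least 50 cells. The library share was 13.1% without the AS library, the class share 66.8% without the Healthy library, and the 8-class set, chosen after seeing the data, gave 7.56% and 84.4%. The looser filter, the depth limit, the stricter gate and the minimum of 50 cells changed which classes had enough cells.

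Of 240 single-gene values, 9 changed direction, 132 others lay outside the counting interval of the main value and 99 lay within it. Fos in AS over Healthy became 1.02 with the looser filter, 1.01 with doublets kept, 1.03 as a mean over cells and 1.03 in cells of up to 2000 UMIs, and Egr1 1.05 in the last of these. Jun became 0.912 and Atf3 0.978 in AS over Healthy with equal class weights. Junb in MTZ-treated over AS became 1.05 as a mean over cells and 1.12 in cells of up to 2000 UMIs. The cause was not tested. The macrophage-like class held 28 cells in MTZ-preventive, and 76 with doublets kept.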
